A study of Drosophila melanogaster with 6 samples.

Results

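This account covers 38 genes of DNA replication and mitosis among the 13517 genes measured in larval muscle of Drosophila melanogaster. A gene was taken when its symbol in the deposited table equalled one of 38 listed names, and all 38 were found. The genes were measured by RNA sequencing in 2 groups of 3 samples. The first group, called tsrRNAi, had the genotype Mhc-Gal4>UAS-twinstarRNAi, in which muscle expressed a knockdown construct for tsr (twinstar), which encodes cofilin, a protein that cuts actin filaments. The second group, called mCherryRNAi, had the genotype Mhc-Gal4>UAS-mCherryRNAi and expressed a construct against a fluorescent protein gene that flies do not have. Both groups thus carried the same Mhc-Gal4 driver, which acts in differentiated muscle and not in the dividing cells of other tissues. The protocol fields describe larvae late in the third instar, and each sample was a muscle-enriched lysate of 7 to 10 pooled larvae, whereas the source and tissue fields say adult body wall. The genotype label names each sample as a biological replicate, and the p-values below measure the spread between such pools.

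Before a chromosome can be copied, origin recognition complex proteins and Cdt1 load the MCM ring, the replicative helicase, onto DNA, and Cyclin E with its kinase then starts S phase under the E2F transcription factor. Mitosis needs a further set of proteins, among them mitotic cyclins with Cdk1, the Polo and Aurora kinases, the kinetochore and the spindle motors. Larval muscle fibres no longer divide, and their nuclei grow by endoreplication, in which S phases follow one another without mitosis. Mitotic genes in a body wall preparation are therefore usually read as a sign of dividing cells, such as those of imaginal discs, neuroblasts and adult muscle precursors. In bulk RNA, fewer cells of a type and less RNA per cell cannot be told apart.

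Values are given as scaled counts, a scaled count being a read count divided by 1 size factor per sample. A fold change is the difference of group means of log2(scaled count + 1), tsrRNAi minus mCherryRNAi. The targeted gene was checked first. tsr had 6966, 7070.2 and 5035 scaled counts in tsrRNAi samples 1 to 3, against 39133, 29266 and 25816 in mCherryRNAi samples 1 to 3, a log2 fold change of -2.30 (SE 0.21, limma adjusted p = 0.00525). Reads in genes numbered 37138289 to 41900871 per sample. By Pearson correlation across genes the library of mCherryRNAi 2 stood apart, at 0.759 and 0.813 with the other mCherryRNAi samples. Those correlated at 0.951 with each other, and tsrRNAi samples at 0.959 to 0.963. By genes above 0, mCherryRNAi 1 and 3 stood apart instead, with 12035 and 12511. The count was 13233 in mCherryRNAi 2 and 13166 to 13258 in tsrRNAi samples. A fit without mCherryRNAi 2 thus keeps the controls with the fewest genes detected. The defining markers of muscle were abundant in every sample. The 14 muscle markers made up 16.3% to 19.6% of all scaled counts in tsrRNAi samples and 8.75% to 12.1% in mCherryRNAi samples, while the 38 replication and mitosis genes made up 0.0847% to 0.155% in tsrRNAi samples and 0.0951% to 0.157% in mCherryRNAi samples. Each muscle marker had a positive log2 fold change (median 0.64) and 0 of 14 passed the test, with 7 at an unadjusted p under 0.05. The part of muscle content in the results below was not tested, apart from 1 fit scaled to these markers.

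None of the 38 genes differed between the groups at an adjusted p of 0.05 (limma on log2(scaled count + 1), Benjamini-Hochberg over 11720 genes). All 38 had a mean of at least 10 scaled counts over the 6 samples and entered the test. The count called higher in tsrRNAi was 0 of 38, against 4.58% of all genes tested, and the count called lower was 0 of 38, against 7.02% of all genes. In either direction 11.6% of all genes were called. The log2 fold changes of the 38 genes lay above 0 for 18 and below 0 for 20, from -0.51 for CycE to 0.60 for cid, with a median of -0.01, beside 0.06 over all genes. edgeR on the recovered reads called 0 of the 38, with 9.89% of all genes called, and DESeq2 called 1, Bub1, with 24.1% of all genes called. Without mCherryRNAi 2 the count was again 0 of 38, with 27.3% of all genes called, and the median was -0.08. A p that misses the threshold does not show that the groups were equal. The 95% interval of the fold change lay within 2-fold in both directions for 21 of the 38 genes, so for the other 17 a change of 2-fold in at least 1 direction lay within the interval.

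**Figure D1:**
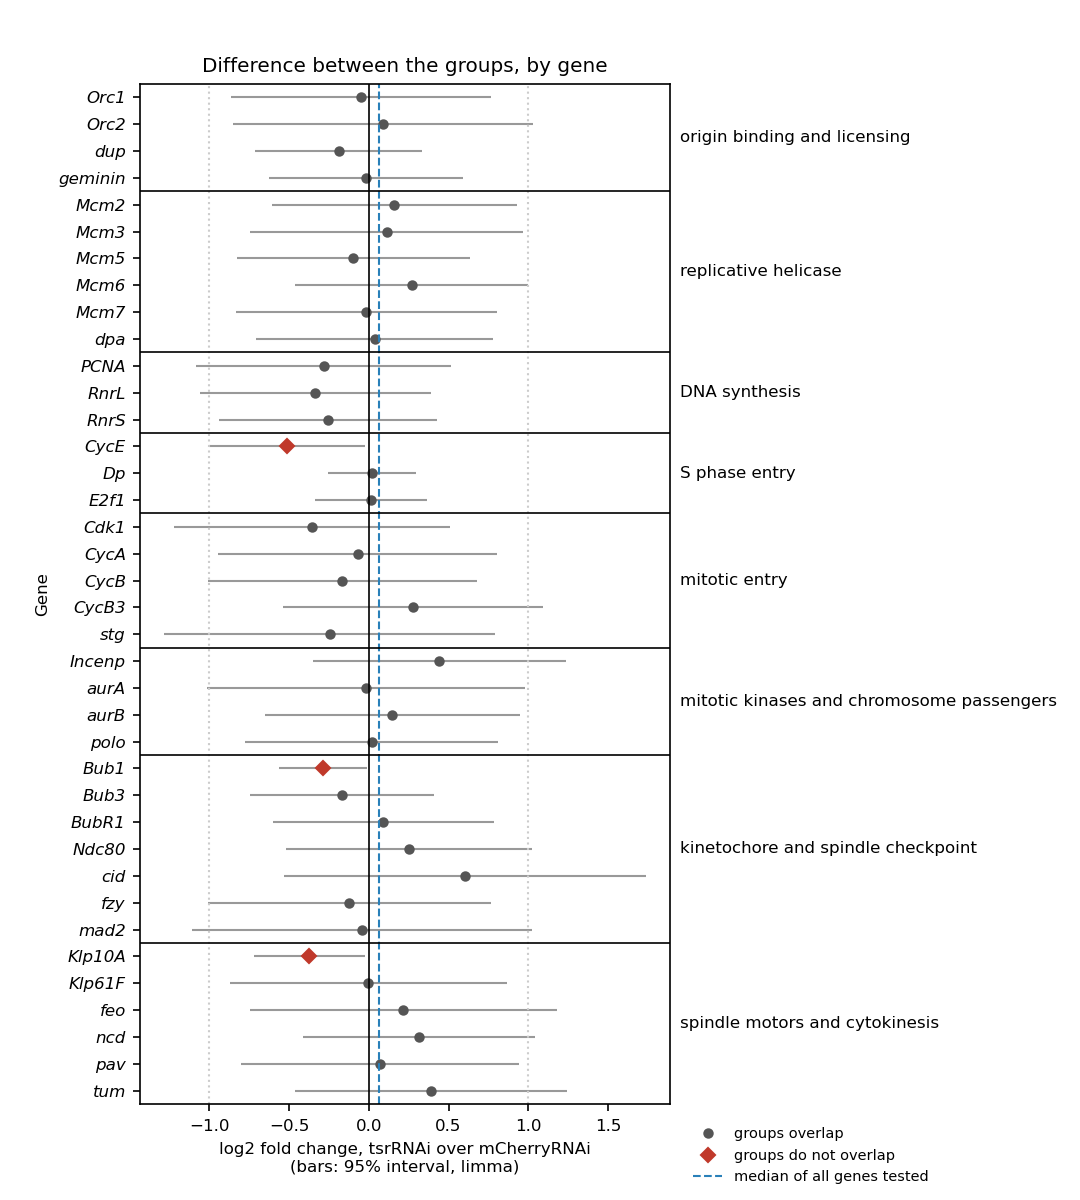
Log2 fold change of each of the 38 genes, tsrRNAi over mCherryRNAi, with limma's 95% interval (3 samples per group), ordered by role. Red diamonds mark the 3 genes whose groups do not overlap, the dashed line is the median of all genes tested, and dotted lines mark 2-fold either way; most intervals span 0.

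Groups that did not overlap were found for 3 of the 38 genes, all lower in tsrRNAi, a smaller share than the 19.6% of all genes that were lower without overlap. A further 16.8% of all genes were higher without overlap, and 0 of the 38. The same 3 were the ones with an unadjusted p under 0.05, a level that 29.1% of all genes reached. Klp10A (FBgn0030268), a kinesin-13 that takes microtubules apart at their ends, lies on chromosome X at 11129362 to 11137118, minus strand. It had 2958, 3233 and 2503 scaled counts in tsrRNAi samples, against 3254, 4022 and 3970.0 in mCherryRNAi samples. The highest tsrRNAi value was just under the lowest mCherryRNAi value, and the log2 fold change was -0.37 (SE 0.14, limma adjusted p = 0.151). Bub1 (FBgn0031696), a kinase of the spindle checkpoint, lies on chromosome 2L at 5278865 to 5283283, plus strand. It had 977, 866 and 951 scaled counts in tsrRNAi samples, against 1050.3, 1193 and 1173 in mCherryRNAi samples. Its samples were close within each group, and its log2 fold change was -0.29 (SE 0.11, limma adjusted p = 0.155, DESeq2 adjusted p = 0.0392). CycE (FBgn0010382), the cyclin that starts S phase in both the mitotic cycle and the endocycle, lies on chromosome 2L at 15727581 to 15748150, minus strand. It had 768, 969 and 653 scaled counts in tsrRNAi samples, against 1008, 1027 and 1361 in mCherryRNAi samples. Sample tsrRNAi 2 came close to mCherryRNAi 1, and the log2 fold change was -0.51 (SE 0.20, limma adjusted p = 0.156). Without mCherryRNAi 2 the log2 fold changes of Klp10A, Bub1 and CycE were -0.32, -0.26 and -0.57, none past the threshold.

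The genes that license origins gave no call in either direction, 0 of 4. They were Orc1 and Orc2, subunits of the origin recognition complex, dup, the fly Cdt1 that helps load the helicase, and geminin, which inhibits it. Their log2 fold changes ran from -0.19 (dup) to 0.09 (Orc2). geminin had 812, 1039 and 621 scaled counts in tsrRNAi samples, against 775, 675 and 1041 in mCherryRNAi samples. Sample 2 was the highest of the tsrRNAi group and sample 3 of the mCherryRNAi group, at nearly the same level.

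Of the 6 helicase subunits, Mcm2, Mcm3, Mcm5, Mcm6, Mcm7 and dpa (the fly Mcm4), 0 were called. Mcm6 had 1286, 1759.7 and 1049 scaled counts in tsrRNAi samples, against 911, 917 and 1623 in mCherryRNAi samples, a log2 fold change of 0.27 (SE 0.30, limma adjusted p = 0.581). The groups overlapped, since mCherryRNAi 3 stood above tsrRNAi 1 and 3. The other 5 subunits had log2 fold changes from -0.10 (Mcm5) to 0.16 (Mcm2). For all 6 subunits the 95% interval stayed within 2-fold either way.

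The 3 genes of DNA synthesis were PCNA, the sliding clamp that holds the polymerase on DNA, and RnrL and RnrS, the large and small subunits of the ribonucleotide reductase that makes deoxynucleotides. All 3 had a mean below mCherryRNAi, with log2 fold changes from -0.33 (RnrL) to -0.26 (RnrS), and 0 of 3 passed the test. PCNA had 1259, 1638 and 731 scaled counts in tsrRNAi samples, against 1209, 1248 and 1796 in mCherryRNAi samples. Its lowest and its second highest sample were both tsrRNAi samples, which differed 2.24-fold. The group means were 1209 ± 456 in tsrRNAi and 1418 ± 328 in mCherryRNAi (SD, n = 3 each), apart by less than either SD.

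The S phase entry group held CycE, described above, and E2f1 and Dp, the partners in the transcription factor that turns on S phase genes. E2f1 and Dp gave no call and were among the most even of the 38 across samples. E2f1 had 6769, 7396 and 8142 scaled counts in tsrRNAi samples, against 7379, 6289 and 8525 in mCherryRNAi samples. The groups overlapped, and tsrRNAi 3, low for most of the 38, was the highest of its group. The log2 fold change of E2f1 was 0.01 with a 95% interval of -0.34 to 0.37, and that of Dp was 0.02 with an interval of -0.26 to 0.30. As a fold, the interval of E2f1 ran from 0.791 to 1.29.

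Genes of mitotic entry gave 0 calls of 5. They were Cdk1, the kinase that drives mitosis, its cyclins CycA, CycB and CycB3, and stg, the Cdc25 phosphatase that activates it. stg had 891, 1781 and 689.9 scaled counts in tsrRNAi samples, against 832, 1263 and 1735 in mCherryRNAi samples. Its tsrRNAi samples differed 2.58-fold and its mCherryRNAi samples 2.08-fold, so the log2 fold change of -0.25 (SE 0.42) was small beside the spread. The others ran from -0.36 (Cdk1) to 0.28 (CycB3) on the log2 scale.

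Of the mitotic kinases and their partners 0 of 4 were called. They were polo, whose kinase acts at centrosomes and kinetochores, aurA, whose kinase acts at centrosomes, and aurB and Incenp, which encode 2 proteins of the chromosome passenger complex. Incenp, the scaffold that carries Aurora B to the centromere, had 1462, 1716 and 1195 scaled counts in tsrRNAi samples, against 694, 1063 and 1623 in mCherryRNAi samples. The lowest value was that of mCherryRNAi 1, mCherryRNAi 3 was second only to tsrRNAi 2, and the log2 fold change was 0.44 (SE 0.33, limma adjusted p = 0.423). The log2 fold changes of polo, aurA and aurB ran from -0.02 to 0.15.

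The kinetochore and spindle checkpoint group held Bub1, Bub3, BubR1 and mad2, which delay anaphase, fzy, the activator of the anaphase-promoting complex, Ndc80, which binds microtubules, and cid, the histone variant that marks centromeres. cid, the least abundant of the 38 genes, had 54.9, 76.2 and 43.0 scaled counts in tsrRNAi samples, against 24.5, 37.0 and 55.1 in mCherryRNAi samples. The groups overlapped, with mCherryRNAi 3 slightly above tsrRNAi 1, and the log2 fold change of 0.60 had a 95% interval of -0.53 to 1.74 (limma adjusted p = 0.44). Apart from Bub1 and cid, the genes of the group had log2 fold changes from -0.17 (Bub3) to 0.25 (Ndc80).

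The spindle motors and cytokinesis genes were Klp10A, Klp61F, the kinesin-5 that pushes spindle poles apart, ncd, a minus-end kinesin, feo, the fly PRC1 that bundles midzone microtubules, pav, a kinesin-6, and tum, the RacGAP that works with pav. tum had 1020.4, 1392 and 741 scaled counts in tsrRNAi samples, against 572, 682 and 1197 in mCherryRNAi samples, a log2 fold change of 0.39 (SE 0.35, limma adjusted p = 0.498). As with Incenp, mCherryRNAi 1 was lowest and tsrRNAi 2 highest. Apart from Klp10A, the genes of the group had log2 fold changes from close to 0 (Klp61F) to 0.39 (tum).

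What the 38 genes did share was an order of samples within each group, a pattern described after the values were seen and given here with no test. In 36 of the 38 genes the tsrRNAi samples stood in the order 2, then 1, then 3 from high to low, an order found in 22.6% of all genes tested. The 2 exceptions were Bub1 and E2f1. In 35 of the 38 the highest mCherryRNAi sample was number 3, as in 27.3% of all genes, the exceptions being aurA, Bub1 and Klp10A. Both held in 34 of the 38 genes and in 10.5% of all genes. The genes share 6 libraries, so they are not independent observations of this order.

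**Figure D2:**
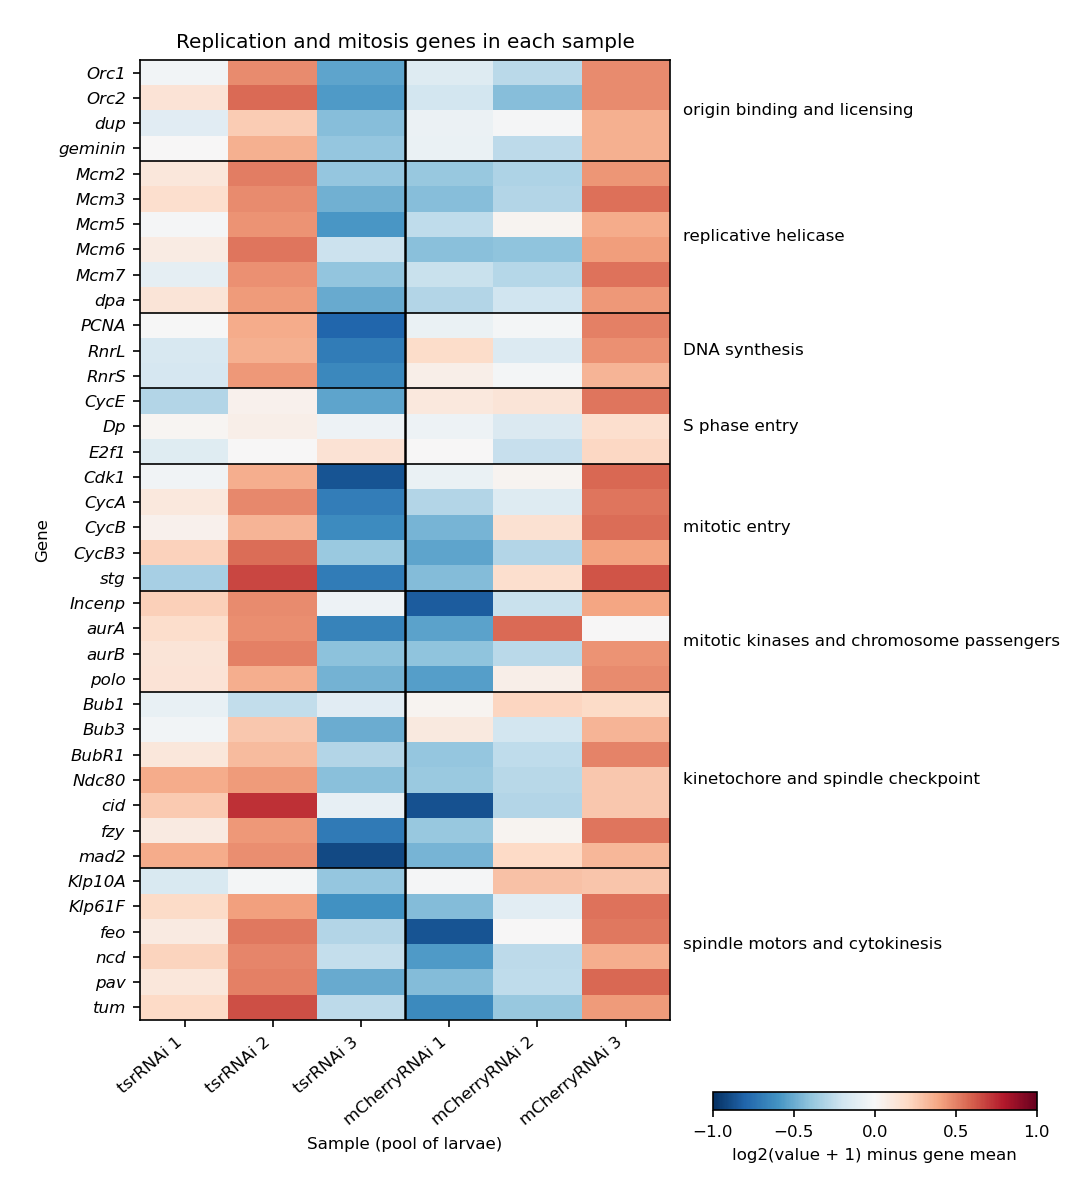
Level of the 38 genes in each sample as log2(scaled count + 1) minus the gene's mean over the 6 samples (red above, blue below), with genes in rows by role. The columns of tsrRNAi 2 and mCherryRNAi 3 are red in most rows and that of tsrRNAi 3 is blue in most.

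The median deviation of the 38 genes from their own means was 0.09, 0.44 and -0.47 in tsrRNAi samples 1 to 3, and -0.37, -0.17 and 0.44 in mCherryRNAi samples 1 to 3, on the log2 scale. The highest and the lowest samples differed 1.89-fold within tsrRNAi and 1.76-fold within mCherryRNAi. Between the groups the mean of these medians differed by 0.05, with a within-group SD of 0.44. The sample median took up 78.2% of the within-group variance of the 38 genes, against 1.32% for all genes tested, whose median the size factors hold nearly level across samples. Other lists had shares of like size, 78.2% for the germline and testis markers, 72.8% for the muscle markers, 71.1% for the further replication genes described below, 63.7% for the imaginal disc markers and 57.7% for the further mitosis genes, so a high share was not particular to the 38. The median subtracted is that of the list itself, so a role with few genes largely sets its own median. Shares by role are therefore not comparable with those of longer lists. By role, this share was 95.9% for the helicase subunits, 95.9% for DNA synthesis, 93.9% for origin licensing and 92.7% for mitotic entry. It was 60.7% for the 3 S phase entry genes, whose members E2f1 and Dp differed at most 1.36-fold within a group. PCNA, the CycA cyclin and the motor Klp61F thus stood in the same order across the tsrRNAi pools, though they act at different steps of the cell cycle.

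Markers of other cell types were set beside this pattern, and their part in it was not tested. The 15 imaginal disc markers had median deviations of -0.24, 0.26 and -0.31 in tsrRNAi samples 1 to 3 and -0.41, 0.02 and 0.48 in mCherryRNAi samples 1 to 3. The order 2, 1, 3 held in 8 of the 15 and mCherryRNAi 3 was highest in 13 of the 15. Their summed level was 20237 to 22619 scaled counts in tsrRNAi samples and 20204 to 26433 in mCherryRNAi samples, and none was at 0. In the test 1 of 15, hth, was called, lower in tsrRNAi, a share near the 7.02% of all genes called lower. hth encodes a homeodomain protein.

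The 9 neuroblast markers followed the order 2, 1, 3 in 8 of 9, with median deviations of 0.83, 1.39 and 0.01 in tsrRNAi samples and -0.01, -2.62 and 0.55 in mCherryRNAi samples. Their summed level was 14012 to 20101 scaled counts in tsrRNAi samples and 12787 to 18666 in mCherryRNAi samples, and 0 of 9 were called. The median log2 fold change of the 9 was 1.496, with 6 above 0 and 3 below, and the median SE was 0.848. For 5 of the 9 the fold change was beyond 2-fold, so the lack of calls does not show equal levels. The list was uneven in mCherryRNAi 2, where tll was at 0 and ase and wor at 7.85 and 5.61 scaled counts, whereas brat and insc had their highest values of the mCherryRNAi group there, at 10439.6 and 391. brat alone made up most of the summed level of that sample, 18029 scaled counts. The 7 neuron and glia markers were all higher in tsrRNAi without overlap, against 16.8% of all genes, and 2 of them, Syt1 and futsch, passed the test, against 4.58% of all genes. Their summed level was 19067 to 21128 scaled counts in tsrRNAi samples and 7242 to 10579 in mCherryRNAi samples, with none at 0. The part of these markers in the comparison between groups was not tested.

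The 18 germline and testis markers summed to 1067 to 3212 scaled counts in tsrRNAi samples and 443 to 6372 in mCherryRNAi samples, with 0 of 18 called. Their median log2 fold change was 2.32, with 16 above 0 and 2 below, and the median SE was 1.56, so here too the lack of calls does not show equal levels. In mCherryRNAi 3, where the 38 genes were highest in their group, these markers summed to 587 and 3 of them were at 0. In mCherryRNAi 1, where the 38 genes were lowest in their group, they summed to 443 and 5 were at 0. Their highest sum, 6372, was in mCherryRNAi 2. The order tsrRNAi 2, 1, 3 held in 1 of the 18. The 14 muscle markers ran the other way from the 38 genes. In them tsrRNAi 2 was the lowest of its group for 14 of 14, against 4006 of all 11720 genes tested. Sample mCherryRNAi 1 was the highest of its group for 12 of 14, against 3756 of all genes. A lowest tsrRNAi 2 was also found in 8 of 10 blood cell markers and 5 of 7 fat body markers. In those lists mCherryRNAi 1 was highest for 2 of 10 and 0 of 7. The 6 adult muscle precursor markers summed to 9768 to 10218 scaled counts in tsrRNAi samples and 7636 to 12061 in mCherryRNAi samples, with 0 of 6 called and none at 0. Their median deviations were -0.05, -0.08 and 0.02 in tsrRNAi samples 1 to 3 and -0.39, 0.15 and 0.42 in mCherryRNAi samples 1 to 3. The median thus followed the order of the 38 genes in mCherryRNAi and not in tsrRNAi. By gene, mCherryRNAi 3 was highest for 2 of 6, against 27.3% of all genes. The lowest was mCherryRNAi 1 for 6 of 6, against 39.4% of all genes. The order tsrRNAi 2, 1, 3 held in 2 of 6.

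**Figure D3:**
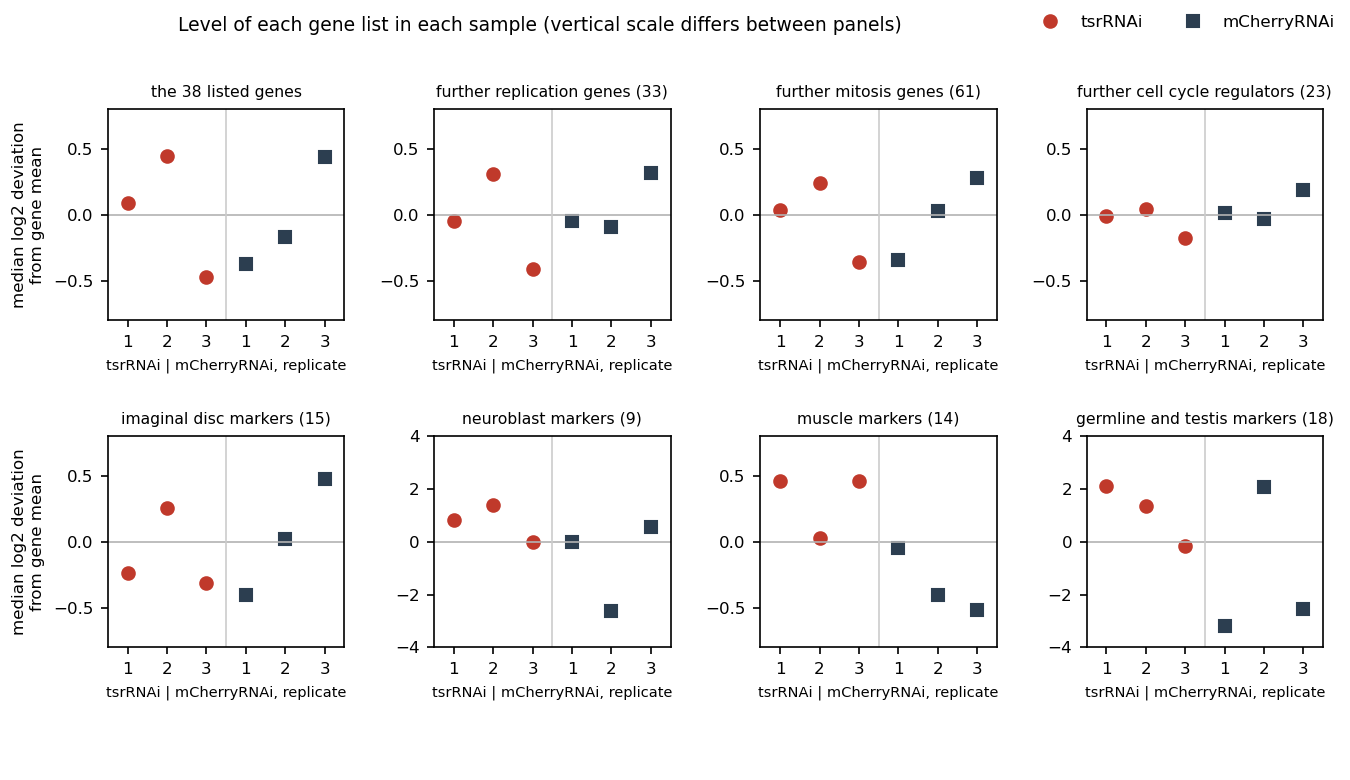
Median deviation of each gene list from its genes' own means, log2(scaled count + 1), in each sample (red circles tsrRNAi, dark squares mCherryRNAi). The 38 genes and the further replication and mitosis genes are highest in tsrRNAi 2 and mCherryRNAi 3, where the muscle markers are lowest in their group; neuroblast and testis panels have a wider vertical scale.

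Set against the sample's own median of the 38 genes, which describes how each gene stood relative to the rest, 3 of the 38 did not overlap and were lower in tsrRNAi (CycE, Cdk1 and PCNA), where 6.83% of all genes did so. Another 6 were higher without overlap (Mcm6, CycB3, ncd, tum, Incenp and cid), against 10.2% of all genes. Neither count was tested. This comparison was chosen after the values were seen and subtracts a value that the genes themselves set. The subtraction takes a shared sample difference out of the 38 and puts it into genes that lack it. Without it, 19.6% of all genes were lower and 16.8% higher without overlap. The shares of all genes given here are therefore no like measure for the 38.

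Levels were also set side by side per kb of exon, which allows genes of different length to be compared. The highest over the 6 samples were Dp, PCNA, E2f1, Bub3 and RnrS, at means of 1257, 1227, 1149.7, 1049.7 and 987 scaled counts per kb. The lowest were cid, Orc1, Orc2 and Mcm7, at 47.7, 88.9, 95.5 and 96.5. The DNA synthesis genes thus stood near the top and the origin recognition subunits near the bottom. In 35 of the 37 pairs of neighbours in this order, the means differed by less than the larger SD over the 6 samples.

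**Figure D4:**
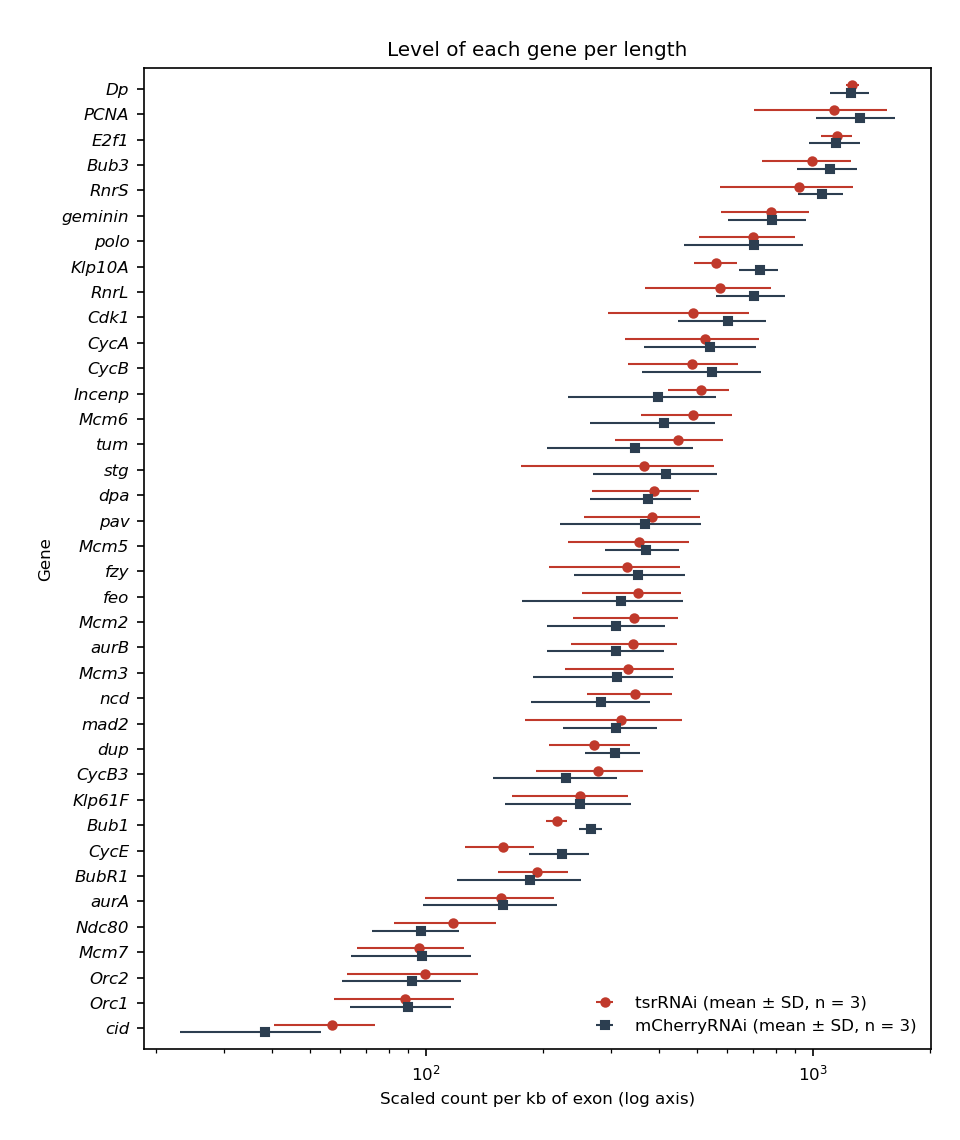
Scaled count per kb of exon for each of the 38 genes (log axis), mean ± SD of 3 samples, tsrRNAi as red circles and mCherryRNAi as dark squares. The error bars of the groups overlap for all genes but Bub1 and Klp10A; Mcm7 stands with the origin recognition subunits, below the other MCM genes.

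Mcm7 was singled out after its values were seen, because the MCM ring holds its 6 subunits in equal number. Mcm2, Mcm3, Mcm5, Mcm6 and dpa had group means of 309 to 489 scaled counts per kb, while Mcm7 had 95.7 in tsrRNAi and 97.4 in mCherryRNAi. Mcm7 (FBgn0020633) lies on chromosome 3L at 8891596 to 8894310, plus strand. In the annotation, 81.7% of its 2451 exon bases are also exon of the antisense gene asRNA:CR45871. Whether the authors' counting used strand is not given in the sources used here, and reads over both genes could have been set aside as ambiguous. Over the 448 exon bases that Mcm7 does not share, its level would be 524 ± 162 scaled counts per kb in tsrRNAi and 533 ± 183 in mCherryRNAi (SD, n = 3 each). asRNA:CR45871 itself had 2.99 to 10.1 scaled counts in tsrRNAi samples and 4.45 to 8.12 in mCherryRNAi samples. The low value of Mcm7 is therefore uncertain, while its comparison between groups rests on the same counted bases in every sample. Another 13 of the 38 genes overlap an exon of a neighbour, over at most 15.9% of their exon bases (Bub3).

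Other genes of the same machinery were counted from 3 further lists, and the plot of fold changes by list shows them beside the 38. Among 33 further replication genes, which include origin, polymerase, clamp loader and single-strand binding subunits, 0 were called, the median log2 fold change was -0.10, and 2 had an unadjusted p under 0.05. edgeR and DESeq2 also called 0 of the 33. The order tsrRNAi 2, 1, 3 held in 28 of these 33 and mCherryRNAi 3 was highest in 30, so the sample pattern of the 38 genes was found there too. Among 23 further cell cycle regulators 0 were called and the median was -0.10, and 4 had an unadjusted p under 0.05. edgeR called 0 of the 23 and DESeq2 called 5, where edgeR called 9.89% and DESeq2 24.1% of all genes. The lowest adjusted p was 0.053 (limma), for mip130, a subunit of the Myb-MuvB complex. Here the order 2, 1, 3 held in 11 of 23, and the sample median took up 14.6% of the within-group variance. Without mCherryRNAi 2, mip130 (log2 fold change -0.48, limma adjusted p = 0.0458) and twe, a Cdc25 phosphatase of the germline (1.24, limma adjusted p = 0.0418), passed the threshold. In that fit 27.3% of all genes were called. The sample left out held the highest twe value, 326 scaled counts, against 62.2 and 92.1 in mCherryRNAi 1 and 3 and 132 to 220 in tsrRNAi samples. With all 6 samples the log2 fold change of twe was 0.54 (SE 0.64, limma adjusted p = 0.604).

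**Figure D5:**
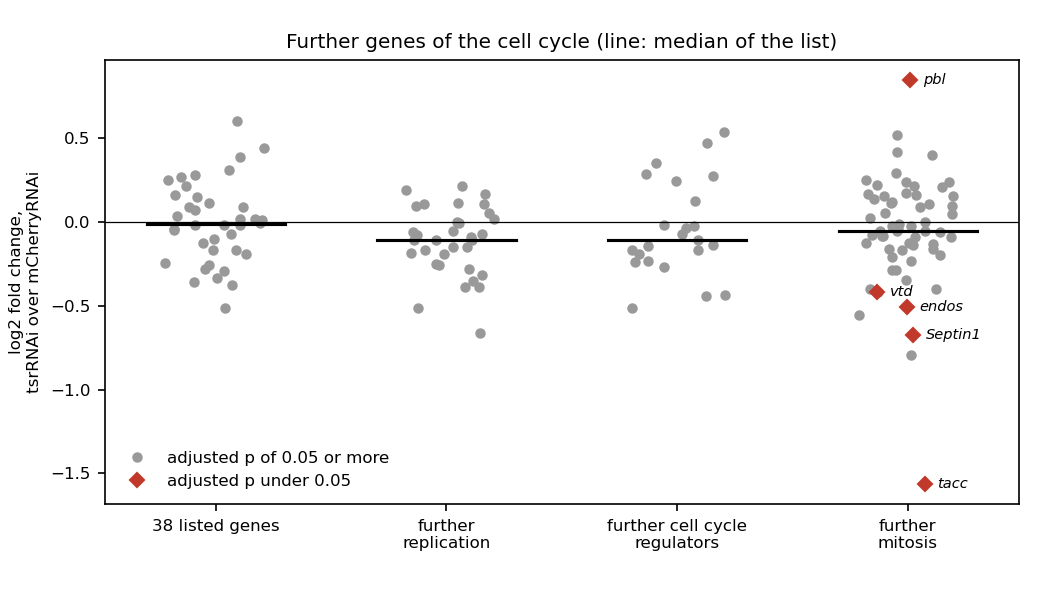
Log2 fold change, tsrRNAi over mCherryRNAi, of the 38 genes and of the genes in 3 further lists, each point a gene and each line the list's median. Red diamonds are the 5 genes with an adjusted p under 0.05, all in the mitosis list, with tacc farthest from 0.

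Among 61 further mitosis genes, 1 was called higher and 4 lower, a smaller share than the 11.6% of all genes, and the median log2 fold change was -0.05. edgeR called 4 of them and DESeq2 called 8, where edgeR called 9.89% and DESeq2 24.1% of all genes. Limma called 3 without mCherryRNAi 1 and without mCherryRNAi 2, and 1 without any one of the other 4 samples. Over the 61 genes, the order tsrRNAi 2, 1, 3 held in 50, mCherryRNAi 3 was highest of its group in 46, and both held in 40. Of the 5 called genes, 0 had both, and each had groups that did not overlap. The test favours genes with a small spread within groups, so these counts of the 5 do not describe the list. tacc (FBgn0026620), a centrosomal protein that stabilises microtubules, had 5397, 4686 and 5781 scaled counts in tsrRNAi samples, against 14367, 15761 and 16619 in mCherryRNAi samples. It fell in tsrRNAi by 1.56 on the log2 scale (SE 0.12, limma adjusted p = 0.00329), farther than any of the 38 genes, and stayed past the threshold in all 15 alternative settings. pbl (FBgn0003041), a gene needed for cytokinesis, had 2633, 2392 and 3169.6 scaled counts in tsrRNAi samples, against 1503, 1344 and 1694 in mCherryRNAi samples. It rose by 0.85 (SE 0.15, limma adjusted p = 0.024) and kept the call in 9 of 15 settings. After scaling to muscle markers its log2 fold change was 0.23, in a fit where the median over all genes was -0.55. Septin1 (FBgn0011710), a filament-forming GTPase, had 1612, 1800.2 and 1643 scaled counts in tsrRNAi samples, against 2258, 2956 and 2899 in mCherryRNAi samples. It fell by 0.67 (SE 0.14, limma adjusted p = 0.0335), a call kept in 9 of 15 settings. vtd (FBgn0260987), the Rad21 subunit of cohesin, had 2494, 2652 and 2348 scaled counts in tsrRNAi samples, against 3333, 3420.4 and 3231 in mCherryRNAi samples. It fell by 0.42 (SE 0.09, limma adjusted p = 0.0417), a call kept in 7 of 15 settings, and without mCherryRNAi 2 its adjusted p was 0.0662. endos (FBgn0061515), an inhibitor of the PP2A phosphatase at mitotic entry, is named here after its values were seen, with 3594, 4119 and 3264 scaled counts in tsrRNAi samples, against 4890.4, 5561 and 5069 in mCherryRNAi samples. It fell by 0.50 on the log2 scale, with an adjusted p of 0.0492 by limma and 0.0735 without mCherryRNAi 2. The call was kept in 5 of 15 settings, and 11.5% of its exon bases overlap a neighbouring gene.

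After scaling each sample to its muscle markers, as an alternative to the deposited scaling, the median log2 fold change was -0.62 for the 38 genes and -0.55 over all genes. Relative to that shift of all genes, the median of the 38 was -0.07. In that fit 1 of the 38 genes, Bub1, was called lower (log2 fold change -0.90, limma adjusted p = 0.0474), with 18.3% of all genes called.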

How the data were processed

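RNA from 6 samples, 3 per group, was extracted with Trizol, amplified with a SMARTer kit and sequenced with reads of 50 bases, per the labels' protocols. The authors used STAR 2.5.0a, Picard and HTSeq 0.5.3 with the dm6 genome, per the submitters' processing notes. The annotation release, the strand setting and how counts were scaled are not given in the sources used here.

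The authors deposited 1 table for the series, with 1 column per sample, matched to samples by title. As deposited, and judging from the values, the signal is a read count per gene divided by a size factor of the sample, so that 1 read was worth 0.903 to 1.16 scaled counts. In all 6 columns 100% of values were whole multiples of that step within 0.01 of a read, so reads could be recovered. The 4 rows outside genes, which held 19.4% to 27.0% of all reads, were left out. For 5 genes, a symbol turned into a date was put back by FlyBase identifier. Amplified reads without molecular identifiers are not independent molecules.

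Because the values are scaled, the main test was limma's moderated test with an intensity trend (version 3.58.1 in R 4.3.3) on log2(value + 1), for genes averaging 10 or more across the samples, without covariates, with Benjamini-Hochberg adjustment over 11720 genes and a threshold of 0.05. The added 1 understates the change of low genes. The alternatives were edgeR 4.0.16 and DESeq2 1.42.0 on the recovered reads, pseudocounts of 0.5 and 5, no filter, a minimum mean of 50, upper quartile scaling, scaling to 14 muscle markers, a replicate block and leaving out each sample. The test was checked on simulated data, with genes drawn independently and 200 of them changed by 1.5 on the log2 scale. The 38 genes shared a difference between samples and had smaller fold changes, so that check does not cover their case. The 38 genes, the further lists and the markers were chosen with earlier results of these data known. Values in every sample were given for members whose groups did not overlap, for 8 members picked for their roles, and for up to 4 called genes per further list by smallest p. Among those 8 members, Mcm6, Incenp, cid and tum each had the highest log2 fold change of their role, so the values shown lean to that side. Of the further lists, Orc3, dUTPase and SuUR were not matched to a gene. Exon lengths, positions and overlaps came from the Ensembl annotation of the dm6 assembly, on either strand.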

Additional observations from a re-analysis of the deposited data

How the results depend on the processing

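The 15 alternative settings were applied to the counts of called genes, to the median of the 38 and to the fold changes of the named genes, and not to the counts of overlap, sample order or markers. The count of the 38 genes called higher was 0 in all 15, and the count called lower was 0 in 13 of 15. The exceptions were DESeq2, with 1 (Bub1), and scaling to muscle markers, with 1 (Bub1). The median log2 fold change of the 38 was -0.62 under muscle marker scaling, where the median of all genes was -0.55, and ran from -0.21 to 0.26 when 1 sample was left out, with 0 called each time. Upper quartile scaling moved the median of all genes to 0.15 and that of the 38 to 0.08. Under a minimum mean of 50, cid dropped out and 37 of the 38 were tested. Over gene and setting, the sign of an uncalled member differed in 30 of 341 values from all 6 samples and in 54 of 228 values with 1 sample left out, and 7 of the 38 never changed sign.

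Further replication genes gave 0 calls in all settings. The 23 further cell cycle regulators gave 5 calls under DESeq2, 1 under a minimum mean of 50, 3 under muscle marker scaling and 0 to 2 with 1 sample left out. The 61 further mitosis genes gave 8 under DESeq2, 8 under muscle marker scaling, 2 under upper quartile scaling and 1 to 3 with 1 sample left out. Of all genes, DESeq2 called 24.1% and the fit with muscle marker scaling 18.3%. The minimum mean of 50 called 1461 of 9665 genes and upper quartile scaling 1338 of 11712. With the replicate block the further mitosis genes gave 1 call and the 38 genes 0, and 112 of all genes were called, 24 higher and 88 lower. Deviations of samples with the same number correlated at -0.46, -0.03 and 0.19, so the numbers were not taken as pairs. The other counts of all genes ran from 185 without tsrRNAi 1 to 3109 without mCherryRNAi 2, against 1360. The share of higher calls moved with scaling: 698 higher and 640 lower under upper quartile scaling and 165 and 1988 under muscle marker scaling, against 537 and 823. The causes were not tested. With 3 pools per group, the median SE of the 38 genes was 0.33 on the log2 scale, which limits the size of change that could be called.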

Other observations

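Among the 7 gut markers, the protease gene Jon65Aiv had 542, 17819 and 129 scaled counts in tsrRNAi samples 1 to 3, against 1229, 1050.5 and 19422 in mCherryRNAi samples 1 to 3. Its highest samples, tsrRNAi 2 and mCherryRNAi 3, are also those with the highest level of the 38 replication and mitosis genes. This was noticed after the values were seen, and its part in that pattern was not tested. Of the 6 gut markers tested, 1 had the order 2, 1, 3 in tsrRNAi, and it was Jon65Aiv. Jon65Aiv was also the only 1 of the 6 that was highest of the mCherryRNAi group in sample 3. The other 5 were highest in mCherryRNAi 1, the lowest mCherryRNAi sample for 29 of the 38 genes, so the gut markers did not share the pattern as a list.

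The 19 ecdysone response genes, which respond to the hormone that times the end of larval life, had 1 gene called higher and 6 lower in tsrRNAi, against 4.58% and 7.02% of all genes, with a median log2 fold change of -2.15. Their median deviations were -1.14, -0.44 and -0.95 in tsrRNAi samples, against 0.50, 1.69 and 0.10 in mCherryRNAi samples. The groups did not overlap in this median, whereas those of the 38 genes did.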
